A study of Mus musculus with 2 samples.

Results

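The epidermal growth factor receptor (Egfr), 5 of its ligands (Hbegf, Ereg, Areg, Tgfa and Btc) and the feedback inhibitor Errfi1 were followed through the cells of mouse fracture callus. These 7 genes were taken by symbol from the 32285 genes of the expression matrices, and each symbol had 1 row in both libraries. They were chosen by their UMI levels in the named cell classes of these same cells, so the levels by class below are a description and carry no test. Calluses came from mid-shaft femoral fractures of wild-type C57BL/6J male mice, 12 weeks old. Tissue was collected 10 days (n = 5) and 20 days (n = 5) after fracture, digested with enzymes and sequenced by 10x Chromium 3′ chemistry. The labels name the libraries MGJ and MGJ2 without giving either a day, and the barcodes do not separate animals. Each library is therefore described on its own, with no replicate of either, and no difference between them is read as a difference between days.

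Ligands of the EGF family are made as membrane-anchored precursors, are released by proteases such as ADAM17, and bind the receptor on the same or a nearby cell. The bound receptor dimerises, phosphorylates itself and signals through GRB2 and SOS1 to the RAS and ERK pathway, which switches on immediate-early genes and also its own inhibitors. In cartilage this receptor is known for its part in growth plate remodelling and in the upkeep of the joint surface.

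The genes lie on 5 chromosomes in GRCm38. Ereg (chromosome 5, 91074622 to 91093646, plus strand), Areg (91139599 to 91148432, plus strand) and Btc (91357261 to 91402994, minus strand) form 1 ligand cluster. Ereg ends 45952 bases before Areg begins, and Areg ends 208828 bases before Btc. Tgfa lies on chromosome 6 (86195223 to 86275719, plus strand), Egfr on chromosome 11 (16752203 to 16918158, plus strand) and Errfi1 on chromosome 4 (150853919 to 150868892, plus strand). All 7 are annotated as protein coding.

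RefSeq promoter windows (GRCm38.p6, 250 bases before and 50 after a start) were at hand for 5 of the 7 genes, in 6 windows. They were searched on both strands for the cAMP response element TGACGTCA, the TATA box TATAAA, and the AP-1 element as TGACTCA or its reverse complement TGAGTCA. Areg and the downstream window of Errfi1 held a cAMP response element followed by a TATA box. Both motifs, in any order, occurred in 0.17% of 32851 windows, and the last 100 bases before the start of this ligand and this inhibitor are shown because they share the pair. Capitals mark the element and then the TATA box, read 5′ to 3′ on the plus strand.
Areg, chr5:91139499-91139598: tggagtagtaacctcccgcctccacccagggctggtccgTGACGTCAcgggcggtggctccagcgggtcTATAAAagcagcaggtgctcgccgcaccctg
Errfi1, chr4:150854970-150855069: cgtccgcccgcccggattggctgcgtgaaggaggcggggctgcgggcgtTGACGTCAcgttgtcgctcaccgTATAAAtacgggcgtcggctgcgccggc
The element began 61 bases before the start in Areg and 51 in Errfi1, with 22 and 15 bases between it and the TATA box. Over all windows 1.79% held the element, 13.6% the TATA box and 5.20% an AP-1 element. The windows of Btc, Tgfa and Egfr and the upstream window of Errfi1 held neither the element nor the TATA box, and no window of these genes held the AP-1 letters. A match is a description of the sequence and not a measured binding site.

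After filtering, 12947 cells with 125556925 UMIs were kept in MGJ and 7568 cells with 57802511 UMIs in MGJ2. Before filtering, 19 barcodes occurred in both libraries. Of 31 clusters, 17 drew more than 90% of their cells from 1 library. Fixed marker lists named 15 cell classes of at least 50 cells in MGJ and 14 in MGJ2. All 15 chondrocyte markers in both libraries, and all 11 fibroblast markers in MGJ, stood more than 2-fold above the remaining cells in the class that carries their name. In MGJ2 this held for 6 of 8 monocyte markers and 9 of 10 macrophage markers, with 1 macrophage marker at 0 UMIs. The same lists gave the names, so these counts restate the naming and do not test it. Fibroblast-like and pericyte-like cells numbered only 4 and 9 in MGJ2, and no cluster was named osteoblast. The names carry 1 further limit: 7 named clusters had none of their own markers among their 10 leading genes, among them the larger chondrocyte cluster (1659 cells in MGJ, led by Penk, Ucma and Mgp), in which all 15 chondrocyte markers were detected. Clusters of that kind held 1763 cells named chondrocyte before sub-clusters were set aside and 1535 of the 2107 macrophage-like cells of MGJ.

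Levels are UMIs of the gene for every 1000000 UMIs of the class (CPM, counts per 1000000), with an exact Poisson 95% interval. Ratios have an exact binomial 95% interval. Intervals cover counting error only, and cells of a library are not replicates. A pair of classes is said to be told apart when the interval of their ratio leaves out 1.

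Hbegf, the heparin-binding ligand encoded on chromosome 18 (36504927 to 36515805, minus strand), had its highest level in chondrocyte-like cells in both libraries, followed by endothelial-like cells. Chondrocyte-like cells stood at 407 CPM in MGJ (402 to 413, 21924 UMIs in 2578 cells) and held 70.0% of that library's Hbegf. In MGJ2 they stood at 374 CPM (356 to 394, 1491 UMIs in 138 cells) and held 73.2%. Endothelial-like cells came next with 260 CPM in MGJ and 312 CPM in MGJ2, in both libraries told apart from the chondrocyte-like cells. The endothelial-like level was 1.04 times that of the remaining cells in MGJ (0.961 to 1.13) and 9.40 times in MGJ2 (7.84 to 11.2). Fibroblast-like cells had 186 CPM in MGJ and held 8.71% of its Hbegf. Osteoclast-like cells (78.1 CPM) and pericyte or smooth muscle-like cells (76.2 CPM) could not be told apart there, and macrophage-like cells had 50.3 CPM. In MGJ2 osteoclast-like and macrophage-like cells both had 29.0 CPM, and no other class of at least 50 cells passed 2.42 CPM. The 4 fibroblast-like cells there had 360 CPM from 29 UMIs (241 to 517). The 9 pericyte-like cells had 31.6 CPM from 4 UMIs. Lymphoid cells had little, with 2.62 CPM in T cell-like cells of MGJ and no UMI in the B cell-like and NK cell-like cells of that library.

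Against the remaining kept cells, Hbegf in chondrocyte-like cells was 3.12 times as high in MGJ (3.04 to 3.20) and 37.0 times in MGJ2 (33.5 to 40.8). The rest of MGJ, which includes 858 fibroblast-like cells, stood at 131 CPM, and the rest of MGJ2 at 10.1 CPM. The ratio in MGJ ran from 3.10 to 5.85 over 8 alternatives, but fell to 0.962 when the clusters without an own leading marker were left out of the class and counted with the rest. Endothelial-like cells then led in MGJ, at 260 CPM. In MGJ2 the ratio of chondrocyte-like cells ran from 20.2 to 56.6.

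**Figure D1:**
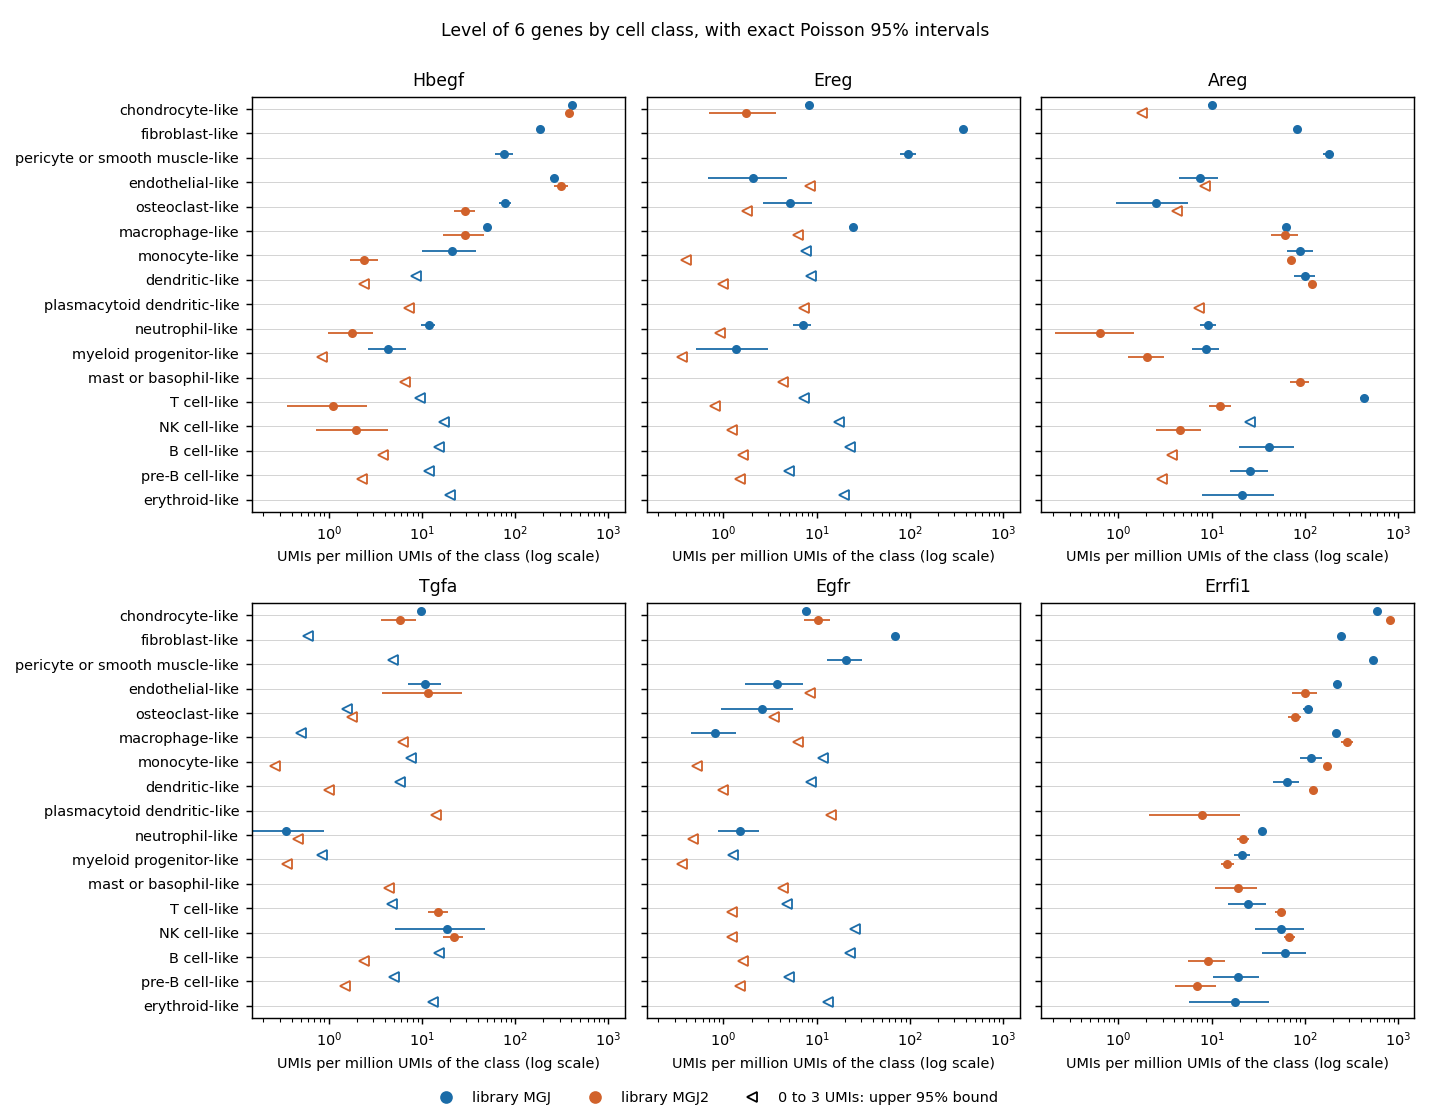
Levels (CPM, logarithmic axis) of Hbegf, Ereg, Areg, Tgfa, Egfr and Errfi1 in each named class of at least 50 cells. Points have exact Poisson intervals as bars, and colour marks library MGJ or MGJ2. Open triangles mark the upper bound where a class had few or no UMIs. Btc is not drawn. Hbegf and Errfi1 are high in chondrocyte-like cells of both libraries (407 and 374 CPM, and 602 and 820 CPM), Ereg and Egfr stand out in fibroblast-like cells of MGJ (374 and 68.7 CPM), and Areg is spread over immune and stromal classes.

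Within the chondrocyte lineage of MGJ, Hbegf varied between sub-clusters made without regard to these genes. The sub-cluster led by Penk, Tfpi2 and Flrt3 (836 cells) had 695 CPM, and the one led by the cell-cycle genes Ube2c and Top2a had 605 CPM. The sub-clusters named hypertrophic-like had 258 and 164 CPM, and the one led by Col8a1, Slc40a1 and Abi3bp had 220 CPM. A sub-cluster led by the osteoblast genes Ifitm5, Bglap2 and Bglap (137 cells), kept out of the chondrocyte class for that reason, had 546 CPM. Among fibroblast-like sub-clusters Hbegf lay between 170 and 206 CPM, and in those set aside from the fibroblast cluster between 143 and 643 CPM, the highest from 34 cells.

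To compare shares of positive cells, each cell was thinned to 2000 UMIs and shallower cells were left out, since the median depth in MGJ ran from 1882.5 UMIs in neutrophil-like to 22617 in osteoclast-like cells, with 20695 in chondrocyte-like and 16232.5 in fibroblast-like cells. The median in MGJ2 was 27953 UMIs in chondrocyte-like cells. After thinning, 39.1% of 2535 chondrocyte-like cells in MGJ (37.2 to 41.0) and 34.3% of 137 in MGJ2 (26.4 to 42.9) had an Hbegf UMI, against 75.3% and 68.8% unthinned. Thinned shares were 32.1% in endothelial-like and 25.5% in fibroblast-like cells of MGJ. Pre-B cell-like cells, a class that should lack the gene, had a UMI in 1 of 98 cells in MGJ (1.02%) and in 0 of 320 in MGJ2. A share of 0 was read against a floor of 3 cells, here 0.938%, which is not the upper end of an exact interval. The median depths of pre-B cell-like cells before thinning were 1895 and 3982.5 UMIs.

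**Figure D2:**
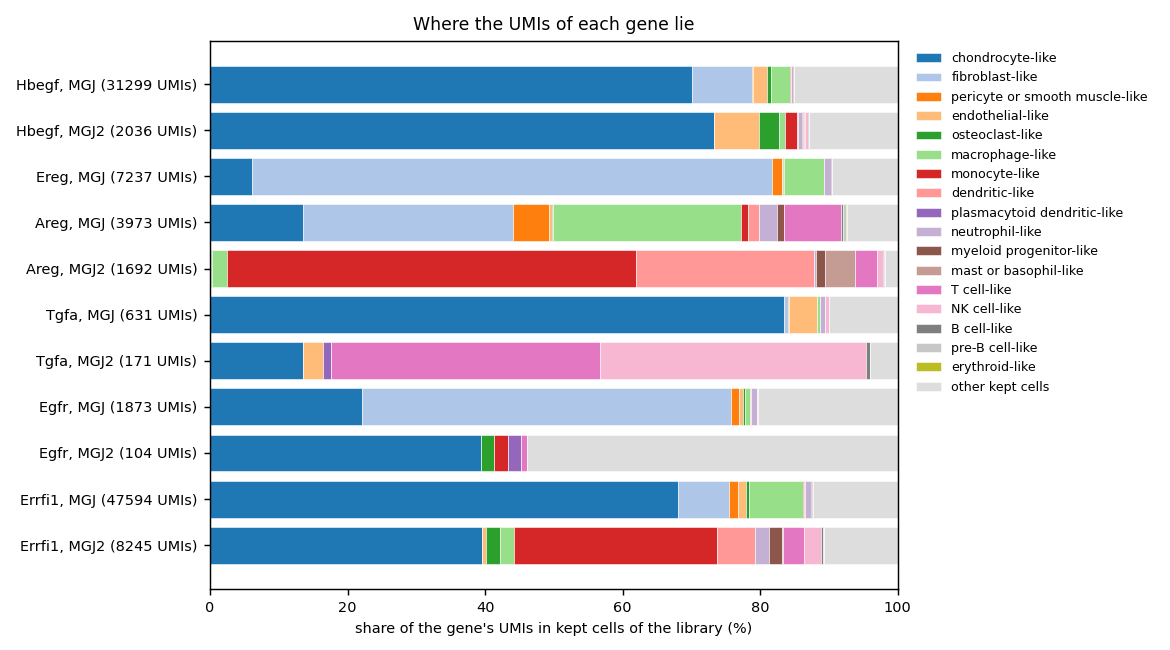
Share of each gene's UMIs (percent) that lay in each class, among the kept cells of a library, drawn as stacked bars. Chondrocyte-like cells held the largest share of Hbegf (70.0% in MGJ and 73.2% in MGJ2) and of Errfi1 (68.0% and 39.6%). Fibroblast-like cells of MGJ held the largest share of Ereg (75.6%) and of Egfr (53.6%).

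Ereg, a ligand that is induced in inflammation and wound repair, was a fibroblast transcript in MGJ and near the limit of detection in MGJ2. Fibroblast-like cells of MGJ had 374 CPM (364 to 384, 5472 UMIs in 858 cells), held 75.6% of the library's Ereg and stood 23.5 times above the rest. That ratio ran from 17.6 to 38.2 over the alternatives, the upper end without scaling of genes before clustering. With each cell named by its own marker score, marrow stromal-like cells led instead, at 397 CPM. Pericyte or smooth muscle-like cells followed with 95.7 CPM, of which 56 of 108 UMIs lay in 1 cell; without that cell the level was 46.8 CPM. Macrophage-like cells had 24.2 CPM, a level that fell to 5.10 CPM with doublet calls kept, and chondrocyte-like and neutrophil-like cells, at 8.21 and 7.05 CPM, could not be told apart. MGJ2 held 10 Ereg UMIs in all, 7 of them in chondrocyte-like cells.

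Fibroblast-like cells were not uniform for Ereg. The sub-cluster led by Gzmb, Ccl19 and Sfrp4 (226 cells) had 715 CPM, and the one led by Mmp10, Saa3 and Clstn2 (198 cells) had 612 CPM. The cycling sub-cluster had 170 CPM, and the largest, led by Angptl1, Igfbp5 and Matn4 (326 cells), had 33.7 CPM. Gzmb is best known from cytotoxic lymphocytes. T cell-like cells of MGJ had 1.31 CPM of Ereg and NK cell-like cells 0 (upper bound 17.2 CPM), and the part of such cells in the Gzmb sub-cluster was not tested. Among macrophage-like cells, the cluster led by Arg1 and Mmp12 (417 cells), which has no macrophage marker among its 10 leading genes, had 108 CPM, and the other 2 had 2.05 and 6.37 CPM. After thinning, 24.6% of fibroblast-like cells (21.8 to 27.7) had an Ereg UMI, against 42.5% unthinned. The share was 2.09% in macrophage-like cells, 1.62% in chondrocyte-like cells and 0 of 98 in pre-B cell-like cells (floor 3.06%). The shares of macrophage-like and chondrocyte-like cells are not above that floor.

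**Figure D3:**
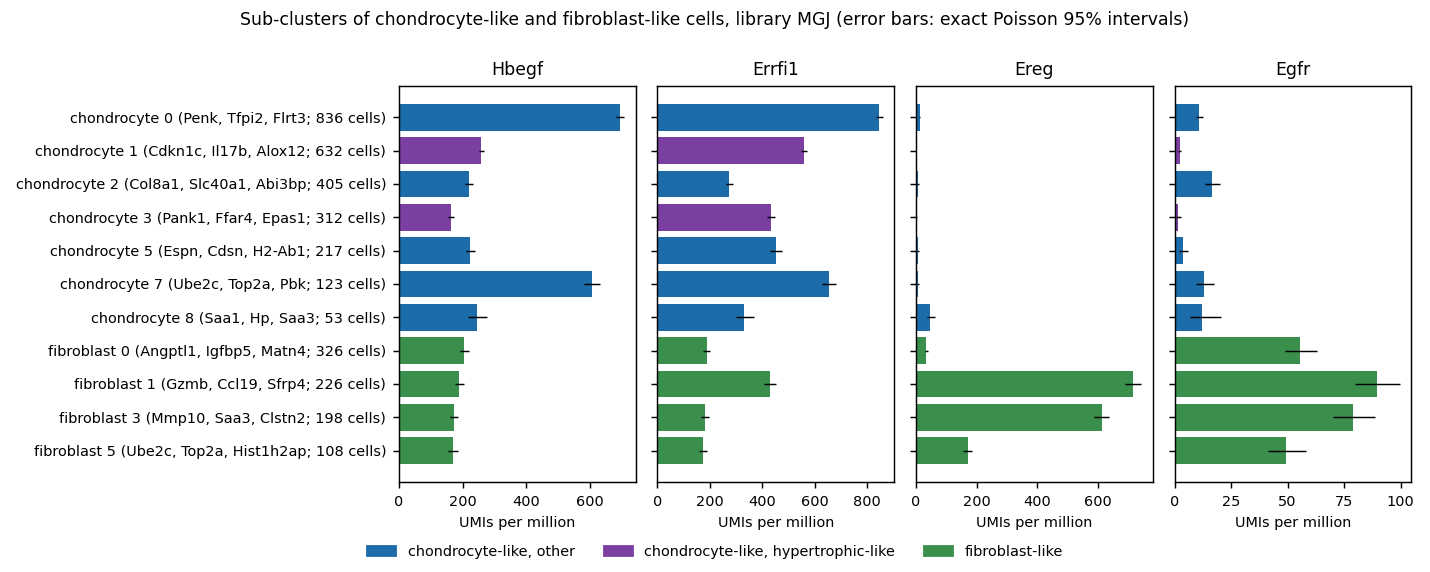
Levels (CPM) of Hbegf, Errfi1, Ereg and Egfr in sub-clusters of the chondrocyte-like and fibroblast-like cells of library MGJ, with exact Poisson 95% intervals as bars. Sub-clusters set aside are not drawn. Ereg runs from 33.7 to 715 CPM among fibroblast-like sub-clusters, while Hbegf is highest, at 695 CPM, in the chondrocyte sub-cluster led by Penk, Tfpi2 and Flrt3.

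Areg, amphiregulin, was carried by few cells in many classes. T cell-like cells of MGJ had the highest level, 435 CPM, but 225 of their 332 UMIs (67.8%) lay in 1 cell, and without it the level was 141 CPM and the ratio over the rest fell from 14.9 to 4.84. All T cell-like Areg of MGJ lay in a cluster led by Icos and Cxcr6. Pericyte or smooth muscle-like cells had 182 CPM and 149 CPM without their top cell, dendritic-like cells 100.3 CPM, monocyte-like cells 90 CPM, fibroblast-like cells 83.0 CPM and macrophage-like cells 62.8 CPM. Dendritic-like and monocyte-like cells could not be told apart, nor could monocyte-like and fibroblast-like cells. By amount, fibroblast-like and macrophage-like cells held 30.6% and 27.3% of the library's Areg. Chondrocyte-like cells had 10.0 CPM. The 41.3 CPM of B cell-like, 26.0 CPM of pre-B cell-like and 21.3 CPM of erythroid-like cells each came from 1 cell.

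In MGJ2 Areg was highest in myeloid classes among those of at least 50 cells. Fibroblast-like and pericyte-like cells, with only 4 and 9 cells there, could not be placed beside them. Dendritic-like cells had 119 CPM (439 UMIs in 346 cells) and stood 5.13 times above the rest, a ratio between 4.34 and 6.35 over the alternatives. Mast or basophil-like cells had 88.3 CPM, or 53.9 CPM without their top cell, and they led under 3 alternatives, with 204 CPM where every cell was weighted equally, 248 CPM without scaling of genes and 88.3 CPM at Leiden resolution 0.5. Monocyte-like cells had 71.7 CPM and, being many, held 59.5% of the library's Areg. Chondrocyte-like cells had 2 UMIs, while a sub-cluster of 12 cells set aside from the chondrocyte clusters had 30 (83.3 CPM). After thinning, 11.7% of dendritic-like cells of MGJ2 (8.49 to 15.6; 21.1% unthinned, median depth 10021.5 UMIs) and 5.37% of monocyte-like cells had an Areg UMI, and pre-B cell-like cells had none in 320. In MGJ the thinned share was 9.24% in T cell-like, 9.76% in pericyte or smooth muscle-like, 6.64% in fibroblast-like and 4.32% in macrophage-like cells, against 1.02% in pre-B cell-like cells (0.0258 to 5.55). The interval of that reference overlaps those of all 4 classes.

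Tgfa, transforming growth factor alpha, was low everywhere. NK cell-like cells had the highest level in both libraries, in MGJ from only 4 UMIs. The class that held most of the UMIs differed between libraries, and so did the numbers of cells. Chondrocyte-like cells numbered 2578 in MGJ and 138 in MGJ2, and NK cell-like cells 70 and 694. In MGJ, chondrocyte-like cells had 9.79 CPM (527 UMIs) and held 83.5% of the library's Tgfa. NK cell-like cells had a higher level, 18.7 CPM, from 4 UMIs (5.09 to 47.8), which could not be told apart from endothelial-like (10.8 CPM) or chondrocyte-like cells. In MGJ2, NK cell-like cells had 21.8 CPM (66 UMIs, 38.6% of the library's Tgfa, 11.4 times the rest) and T cell-like cells 14.9 CPM (67 UMIs, 39.2%). Chondrocyte-like cells there had 5.77 CPM from 23 UMIs, and 1588 monocyte-like cells had none. With each cell named by its own marker score, osteoblast-like cells led in MGJ (15.9 CPM) and innate lymphoid type 2-like cells in MGJ2 (41.1 CPM). Endothelial-like cells led in MGJ without scaling of genes (11.3 CPM) and without the cell with most UMIs (9.72 CPM). Within the MGJ chondrocytes, Tgfa was highest in the hypertrophic-like sub-cluster led by Pank1 and Ffar4, at 22.8 CPM. The thinned share was 1.78% in chondrocyte-like cells of MGJ (13.3% unthinned) and 3.53% in NK cell-like cells of MGJ2 (6.34% unthinned). There was none in 320 pre-B cell-like cells of MGJ2 (floor 0.938%) and none in 98 of MGJ (floor 3.06%, above the chondrocyte-like share).

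Btc, betacellulin, was at the edge of detection, with 27 UMIs in MGJ and 2 in MGJ2. Of the 27, chondrocyte-like cells held 10, fibroblast-like cells 8, and an unnamed cluster of 163 cells another 8. Fibroblast-like cells (0.547 CPM) stood just above chondrocyte-like cells (0.186 CPM, with a ratio of 2.94, 1.0097 to 8.28). The unnamed cluster had 19.9 CPM (8.603 to 39.3), but 5 of its 8 UMIs lay in 1 cell. These orders rest on few UMIs.

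Egfr, the receptor, was in MGJ highest in the fibroblast-like cells that also had the most Ereg. Fibroblast-like cells had 68.7 CPM (64.5 to 73.1, 1004 UMIs), held 53.6% of the library's Egfr and stood 8.77 times above the rest, between 7.40 and 13.7 times over the alternatives. Pericyte or smooth muscle-like cells had 20.4 CPM (23 UMIs) and chondrocyte-like cells 7.71 CPM (415 UMIs), while T cell-like, pre-B cell-like and erythroid-like cells had no UMI. Among fibroblast-like sub-clusters the level ran only from 49.1 to 89.3 CPM, the lowest in the cycling and the highest in the Gzmb, Ccl19 and Sfrp4 sub-cluster. After thinning, 13.3% of fibroblast-like cells (11.1 to 15.7; 58.3% unthinned) and 1.34% of chondrocyte-like cells (12.4% unthinned) had an Egfr UMI; the floor of the 98 pre-B cell-like cells, 3.06%, lies above the latter.

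MGJ2 held 104 Egfr UMIs. Chondrocyte-like cells had 41 of them (10.3 CPM, 8.79 times the rest), not told apart from plasmacytoid dendritic-like cells (3.97 CPM, 2 UMIs). The ratio of 8.79 fell to 2.70 with the clusters lacking an own leading marker left out, and rose to 24.6 with cells weighted equally. At Leiden resolution 2 cells named osteoblast-like led, at 40.7 CPM. More than any class, cells outside the reported classes held the receptor: 53.8% of the UMIs, of which 2 sub-clusters set aside from the chondrocyte clusters (12 and 11 cells) had 12 and 8 UMIs (33.3 and 23.7 CPM), an unnamed cluster of 52 cells 19 (68.3 CPM), the 4 fibroblast-like cells 7 (87.0 CPM) and the 9 pericyte-like cells 7 (55.3 CPM).

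Errfi1, also called MIG6, binds the kinase domain of the active receptor and shuts it off. It was the most widely detected of the 7 genes, with at least 1 UMI in 5430 cells of MGJ and 1731 of MGJ2. Chondrocyte-like cells led in both libraries, with 602 CPM in MGJ (595 to 608, 2.84 times the rest, 68.0% of the library's Errfi1) and 820 CPM in MGJ2 (3266 UMIs, 8.86 times the rest, 39.6%). In MGJ pericyte or smooth muscle-like cells followed with 537 CPM, then fibroblast-like cells with 243 CPM. Endothelial-like (222 CPM) and macrophage-like cells (217 CPM) could not be told apart. In MGJ2 macrophage-like cells had 286 CPM and monocyte-like cells 174 CPM, and the latter held 29.6% of the library's Errfi1. The lowest levels were 17.8 CPM in erythroid-like cells of MGJ and 6.92 CPM in pre-B cell-like cells of MGJ2. The ratio in MGJ fell to 1.52 with the clusters lacking an own leading marker left out, and pericyte or smooth muscle-like cells then led. They also led in MGJ with every cell weighted equally, at 614 CPM against 599 CPM in chondrocyte-like cells.

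In the chondrocyte lineage of MGJ Errfi1 varied too. The sub-cluster led by Penk, Tfpi2 and Flrt3 had 847 CPM, the one led by osteoblast genes and kept out of the class 824 CPM, the cycling one 653 CPM, the hypertrophic-like ones 561 and 434 CPM, and the one led by Col8a1 275 CPM. Among fibroblast-like sub-clusters the one led by Gzmb, Ccl19 and Sfrp4 had 429 CPM and the others 174 to 188 CPM. After thinning, 58.5% of chondrocyte-like cells in MGJ (56.5 to 60.4; 89.7% unthinned) and 55.5% in MGJ2 (46.7 to 64.0; 86.2% unthinned) had an Errfi1 UMI, against 5.10% and 1.88% of pre-B cell-like cells.

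Counted over genes, 3 of the 6 members with at least 50 UMIs in MGJ stood at least 2-fold above the rest in chondrocyte-like cells (Hbegf, Tgfa and Errfi1), beside 13.5% of the 14641 genes tested. In fibroblast-like cells these were Ereg, Areg and Egfr, 3 of 6, beside 11.8%. In chondrocyte-like cells of MGJ2 they were Hbegf, Tgfa, Egfr and Errfi1, 4 of 5, beside 20.2% of 13056 genes. Because the genes were chosen with these levels known, nothing is read from those counts.

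Hypertrophic chondrocytes are the enlarged cells that precede the turn from cartilage to bone, and they were set against the other chondrocyte-like cells inside each library (944 against 1634 cells in MGJ, 90 against 48 in MGJ2). Col10a1, the collagen that defines them, was 19.4 and 15.2 times as high in them, which only restates how they were named. In MGJ, 4 of the 6 members tested were at least 2-fold lower in the hypertrophic-like cells, beside 7.98% of the 12308 genes tested. Hbegf had 232 against 523 CPM (ratio 0.444, 0.430 to 0.458) and Egfr 2.02 against 11.4 CPM (0.176, 0.126 to 0.242). Ereg (0.297) and Areg (0.206) were lower too, and these 4 stayed at least 2-fold lower under all 7 alternatives run for this contrast. Errfi1 was 0.806 times as high. Tgfa went the other way, with 14.1 against 6.95 CPM (2.03, 1.70 to 2.43), 1 of 6 beside 5.02% of genes, but fell below 2-fold, to between 1.41 and 1.85, under 4 of the 7 alternatives.

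**Figure D4:**
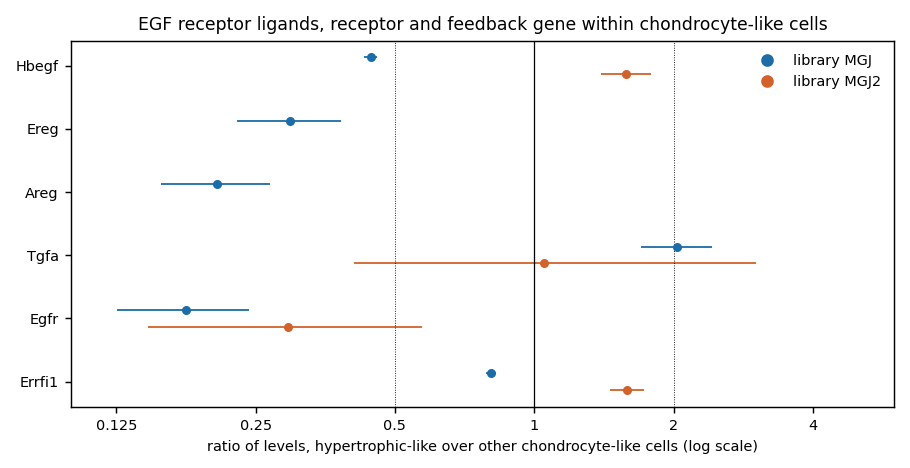
Ratio of the level in hypertrophic-like over that in other chondrocyte-like cells (logarithmic axis), by gene and library, with exact 95% intervals as bars. Btc in both libraries, and Ereg and Areg in MGJ2, had few UMIs and are not drawn. In MGJ Hbegf, Ereg, Areg and Egfr lie below 0.5, while in MGJ2 Hbegf and Errfi1 lie at 1.58 and 1.59.

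In MGJ2 the Hbegf ratio was 1.58 (1.40 to 1.79; 423 against 268 CPM) and the Errfi1 ratio 1.59 (927.8 against 585 CPM), neither past 2-fold, a size reached by 6.97% of 6498 genes. The direction did not hold: Hbegf was between 0.705 and 0.754 times as high under 4 of 6 alternatives, and Errfi1 between 0.948 and 1.10 under those 4. The cells compared also differed, as the sub-cluster led by Penk, Tfpi2 and Flrt3 gave 836 of the 1634 other chondrocyte-like cells in MGJ and 11 of the 48 in MGJ2. Egfr had a ratio of 0.294 in MGJ2 (0.147 to 0.573), from 16 UMIs in hypertrophic-like cells against 25. Those UMIs were too few for the call, so Egfr was not among the genes tested there. Whether its direction holds under the alternatives was not tested.

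Cells that held 1 gene were then asked for a second one at 2000 UMIs each. In chondrocyte-like cells of MGJ, Errfi1 was found in 69.5% of the 991 cells with an Hbegf UMI (66.6 to 72.4) and in 51.4% of the 1544 without (48.8 to 53.9). In MGJ2 the shares were 61.7% and 52.2%, with overlapping intervals. Both genes vary together between sub-clusters, which was not separated from variation between cells of a sub-cluster. In fibroblast-like cells of MGJ, Ereg was found in 28 of the 56 cells with an Areg UMI (36.3% to 63.7%) and in 22.8% of the others, and in macrophage-like cells in 11.8% of 85 cells and 1.65% of the others. Egfr was found in 17.3% of fibroblast-like cells with an Ereg UMI and in 11.9% of those without, in 10.2% with and 14.3% without an Hbegf UMI, and in 8.93% with and 13.6% without an Areg UMI, each with overlapping intervals.

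Across classes, the pattern of Ereg was most like that of Egfr among the members, with Pearson r of log2(CPM + 10) of 0.91 over the 15 classes of MGJ and 0.87 over the 14 of MGJ2, although few of the latter have any UMI of either gene. Hbegf and Errfi1 had r = 0.85 and 0.68. Classes share a library and differ in depth, so these are descriptions. Over 11467 other genes, the closest by mean r included Trim47 (0.96) and Plod1 for Hbegf, Loxl1 (0.95), Fbn2 and Ltbp2 for Ereg, and Ddit4 (0.72), Fam129a and Havcr2 for Areg. They included 1700025G04Rik (0.85), Ier5l and Itga2 for Tgfa, Nbl1 (0.95) and Matn2 for Egfr, and Raph1 (0.91), P4ha1 and Pmp22 for Errfi1. For Btc they were Camk2n2 (0.77), Ncald and Pde10a, which rests on few UMIs.

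The remaining EGF family ligands and receptors were scarce in the skeletal classes. Nrg1, a ligand of ERBB3 and ERBB4, was myeloid, at 76.8 CPM in dendritic-like and 74.0 CPM in macrophage-like cells (MGJ), while monocyte-like cells led in MGJ2 (43.5 CPM). Nrg4 peaked in myeloid progenitor-like cells (19.3 and 13.6 CPM). Egf (65 and 42 UMIs), Epgn (34 and 0) and Nrg2 (60 and 74) were near the limit of detection, and Nrg3 had no UMI. Of the partner receptors, Erbb2 had 310 UMIs in MGJ and 30 in MGJ2, Erbb4 19 and 0, and Erbb3 was highest in plasmacytoid dendritic-like cells of MGJ2 (41.6 CPM). Of the 4 further ligands with at least 50 UMIs in MGJ, only Egf was at least 2-fold higher in chondrocyte-like cells. That call was reached by 13.5% of all genes. Erbb2 was the 1 further receptor with enough UMIs. It was highest in pericyte or smooth muscle-like cells (7.98 CPM), followed by fibroblast-like cells (4.58 CPM). It was at least 2-fold higher in both, a call reached by 11.8% of all genes in fibroblast-like cells.

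Genes of ligand shedding were split between classes. Adam17, the main sheddase of these ligands, was highest in macrophage-like cells (MGJ, 114 CPM) and in monocyte-like cells (MGJ2, 201 CPM). Rhbdf2, which carries ADAM17 to the cell surface, was highest in neutrophil-like cells (99.3 and 162 CPM). Timp3, an inhibitor of ADAM17, was highest in chondrocyte-like cells (899 and 1019 CPM). In those cells Timp3 alone of 5 shedding genes was at least 2-fold higher in MGJ and 3 were at least 2-fold lower, beside 13.5% and 25% of all genes. In MGJ2, Timp3 and Rhbdf1 were higher and 3 lower, beside 20.2% and 32.6%. The median log2 ratio of the list was -1.03 in MGJ and -1.13 in MGJ2, against -0.05 and -0.14 over all genes.

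Of 14 other feedback genes, chondrocyte-like cells had 1 at least 2-fold higher in MGJ (Lrig1) and 5 in MGJ2 (Lrig1, Lrig3, Spry2, Spry4 and Spred1), beside 13.5% and 20.2% of all genes. The median log2 ratios were 0.04 and 0.17. In the same cells 3 and 2 of 14 were at least 2-fold lower, beside 25% and 32.6%. Fibroblast-like cells of MGJ also had 5 of 14 (Lrig3, Cblb, Socs5, Spry1 and Dusp4), beside 11.8%, with a median of 0.31 against 0.01 over all genes. This was not particular to these classes. Endothelial-like cells had medians of 0.47 in MGJ and 0.54 in MGJ2, against 0.08 and 0.03 over all genes. Pericyte or smooth muscle-like cells of MGJ had 0.37, against 0.04. In MGJ, Spry1 was highest in pericyte or smooth muscle-like cells (96.6 CPM), followed by endothelial-like cells (87.0 CPM). Lrig3, a membrane protein that restrains ERBB receptors, had 30.4 CPM in fibroblast-like cells of MGJ and 35.4 CPM in chondrocyte-like cells of MGJ2. Spry2, an inhibitor of the RAS pathway, had 240.0 CPM in NK cell-like and 210.1 CPM in chondrocyte-like cells of MGJ2.

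Of 11 immediate-early genes, chondrocyte-like cells had 8 at least 2-fold higher in MGJ2 (Fos, Fosb, Jun, Egr1, Egr3, Atf3, Myc and Phlda1), beside 20.2% of all genes, and 1 in MGJ (Phlda1), beside 13.5%. The median log2 ratio was 1.84 in MGJ2, against -0.14 over all genes, and 0.25 in MGJ, against -0.05. Fosb had 1428 CPM in chondrocyte-like cells of MGJ2, 24.9 times the rest. Fibroblast-like cells of MGJ had 3 of 11 (Fosb, Egr3 and Myc), beside 11.8% of all genes, with Fosb at 765 CPM. In endothelial-like cells the median log2 ratio of the immediate-early genes was 1.09 in MGJ2, against 0.03 over all genes. It was 0.10 in MGJ, against 0.08. These genes also respond to enzymatic digestion of tissue, and the part of that step in their levels was not tested. Adaptors of the receptor (Grb2, Shc1, Sos1, Gab1 and Ptpn11) were broad, with 0 of 5 higher in chondrocyte-like cells of MGJ, beside 13.5% of all genes, and 1 of 5 (Gab1) in MGJ2, beside 20.2%.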

How the data were processed

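Single-cell RNA-seq of 2 libraries of fracture callus was taken from gene by cell matrices. The deposited values are raw UMI counts per gene and barcode, made by the authors against GRCm38 (the matrix header names cellranger 4.0.0); per the labels 5000 cells were aimed at, and Seurat was used downstream.

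Barcodes with at least 200 genes and at most 20% mitochondrial UMIs were kept, and doublets with a Scrublet score over 0.25 were removed (513 of the cells in MGJ and 238 in MGJ2), a limit set after the automatic threshold had called 0 cells in MGJ. That left 12947 of 14295 barcodes in MGJ (median of all barcodes 5026 UMIs) and 7568 of 8009 in MGJ2 (median 4952). Both libraries were clustered together on 2000 variable genes without the 7 members, 30 principal components, 15 neighbours and Leiden resolution 1, and sub-clustered at 0.5 (scanpy 1.11.5, leidenalg 0.10.2, Python 3.11.15). Clusters were named from 27 marker lists by thresholds set after their leading genes were seen. Clusters and sub-clusters led by genes of another class were left unnamed or set aside.

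The members and lists were chosen with earlier results of these data known. Named genes are the 7 members, the listed genes, the 3 genes most like each member (some are not reported here) and markers; leading genes name sub-clusters and were read after clustering. Ratios use scipy 1.17.1, with 2-fold as the call among genes of at least 50 UMIs. The labels give neither library a group or replicate, so no test between libraries was run. Gene positions are from GENCODE for GRCm38, where 32235 of 32285 gene IDs were found. Ratios were checked on simulated data.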

Additional observations from a re-analysis of the deposited data

Results flagged for a closer look

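The barcodes that the filters removed (1348 in MGJ with 9747501 UMIs, 441 in MGJ2 with 3328323 UMIs) enter no comparison of the main setting. The doublet calls among them (513 and 238) enter only the recomputation with doublet calls kept. The removed barcodes held 6 of the 7 genes in MGJ and 4 in MGJ2 above a floor of 3 UMIs. In MGJ the removed barcodes had 223 CPM of Hbegf, 53.2 of Ereg, 39.5 of Areg, 3.08 of Tgfa, 18.5 of Egfr and 339 of Errfi1, where the kept cells had 249, 57.6, 31.6, 5.03, 14.9 and 379 CPM. In MGJ2 they had 6.01 CPM of Hbegf, 41.2 of Areg, 3.005 of Tgfa and 102 of Errfi1, where the kept cells had 35.2, 29.3, 2.96 and 143 CPM.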

How the results depend on the processing

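Levels and ratios were recomputed with a mitochondrial limit of 10%, with doublet calls kept, at Leiden resolutions 0.5 and 2, with every cell weighted equally, and with each cell named by its own marker score. After the data were seen, clustering without scaling of genes, leaving out the cell with most UMIs, and leaving out clusters without an own leading marker were added. The count of gene and class pairs at least 2-fold above the rest in MGJ2 was 14, and 9 both with a limit of 10% and without the cell with most UMIs. The count of members at least 2-fold higher in hypertrophic-like cells of MGJ fell from 1 (Tgfa) to 0 with doublet calls kept, at both other resolutions and without scaling; the cause was not tested. The ratio of Hbegf in chondrocyte-like cells of MGJ turned to 0.962 with clusters lacking an own leading marker left out and counted with the rest. Endothelial-like cells then led, at 260 CPM. In MGJ2 the hypertrophic-like ratio of Hbegf turned to 0.754 with a limit of 10%, 0.742 with doublet calls kept, 0.705 at resolution 0.5 and 0.716 at resolution 2, and that of Errfi1 to 0.949 with doublet calls kept and 0.948 at resolution 0.5; the cause was not tested. The class with the highest level was kept for 4 to 6 of 6 genes in MGJ and 4 to 5 of 5 in MGJ2. Naming each cell by its own score kept the name of 60.8% of cells in MGJ and 78.5% in MGJ2. The hypertrophic contrast in MGJ2 could not be fitted without scaling, since fewer than 20 cells were left in a set. Counts were low for Btc in both libraries (27 and 2 UMIs) and for Ereg and Egfr in MGJ2 (10 and 104 UMIs), where 4 cells were fibroblast-like. No paired analysis was possible because the labels give neither library a group.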
